A study of Mus musculus with 37 samples.

Results

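This section describes the genes of 2 enzyme families that attach a carrier group to foreign and body-made compounds in the liver, the glutathione transferases and the glucuronosyltransferases, in mice with a substitution in STAT5B. Every gene was taken whose symbol begins with Gst followed by a class letter (a, k, m, o, p, t or z) and a number, or is Mgst1, Mgst2 or Mgst3, or belongs to Ugt1a, Ugt2a, Ugt2b or Ugt3a, and that had at least 10 counts in at least 4 of the 37 libraries. Of 44 symbols that met the pattern among 24421 genes, 40 met the count limit: 22 glutathione transferases and 18 glucuronosyltransferases. The 18 include 2 Ugt3a genes, whose enzymes attach other sugars and which are counted with the glucuronosyltransferases here. The 4 left out were Gstt4, Mgst2, Ugt2a1 and Ugt2a2, whose highest counts in any library were 2, 13, 4 and 2. Of the exon bases of Ugt2a1 and Ugt2a2, 98.8% and 94.5% lie in another gene on the same strand. Their counts therefore depend on how shared reads were treated, which is not given. Mgst2, the nearest below the limit, reached 10 counts in 1 library, and Gsto2, the nearest above it, reached 10 counts in 16 libraries, with a highest count of 14. All 40 also passed the low-count filter of the test, 40 of the 15152 genes tested.

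The RNA came from whole liver of C57BL/6 mice at 2 months of age. The 6 groups were wild type (WT), Y665F and Y665H animals of each sex: WT with 6 males and 6 females, Y665F with 9 males and 6 females, and Y665H with 4 males and 6 females. Y665F and Y665H replace the same tyrosine in the SH2 domain of STAT5B by phenylalanine or histidine. No treatment is named for any group, and the labels do not say whether the animals carried the substitution on a single allele or on both, nor how many founder lines were used. The labels number the libraries of a group but do not say in words that each came from its own animal, so p-values measure the spread between these libraries. Libraries were made from ribosome-depleted total RNA with kits of different makers, and which library was made with which kit is not stated, so kit and group cannot be told apart. Counts per gene do not show the substitution itself, so the genotype labels were not checked against the data.

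Glutathione transferases join the tripeptide glutathione to reactive, electrophilic compounds, and glucuronosyltransferases move glucuronic acid from UDP-glucuronate onto bilirubin, steroid hormones, bile acids and drugs; the conjugates then leave the hepatocyte through membrane transporters. Soluble glutathione transferases fall into classes named alpha, mu, pi, theta, omega, zeta and kappa, while the Mgst proteins sit in membranes. The Ugt1a mRNAs each splice an own first exon to a set of common exons, so the enzymes share their sugar-binding end and differ at the end that binds the acceptor, whereas each Ugt2b enzyme has a gene of its own. STAT5B carries the growth hormone signal into the hepatocyte nucleus, and the different daily patterns of growth hormone in male and female rodents are known to set much of the sex difference in liver metabolism genes.

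Neighbouring near-copies among these genes had opposite or unequal differences, so their upstream sequences are shown for orientation. Each line gives 250 bases that end just before the RefSeq transcription start (assembly GRCm38.p6, minus strand, written 5′ to 3′), with matches to the AP-1 motif TGANTCA or the AHR core GCGTG in capitals. Gstp1 (chr19:4037913-4038162) and Gstp2 (chr19:4042222-4042471) are the pi-class pair of chromosome 19, and Ugt2b37 (chr5:87254789-87255038), Ugt2b38 (chr5:87424204-87424453) and Ugt2b5 (chr5:87140341-87140590) lie in the Ugt2 cluster of chromosome 5. GENCODE M21 places the 5′ ends of Gstp1, Gstp2 and Ugt2b37 further upstream than RefSeq does.
Gstp1: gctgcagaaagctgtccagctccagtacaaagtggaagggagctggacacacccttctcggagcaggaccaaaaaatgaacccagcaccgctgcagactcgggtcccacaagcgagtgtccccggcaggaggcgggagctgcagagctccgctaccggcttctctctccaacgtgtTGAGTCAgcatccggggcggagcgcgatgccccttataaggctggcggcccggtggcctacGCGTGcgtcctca
Gstp2: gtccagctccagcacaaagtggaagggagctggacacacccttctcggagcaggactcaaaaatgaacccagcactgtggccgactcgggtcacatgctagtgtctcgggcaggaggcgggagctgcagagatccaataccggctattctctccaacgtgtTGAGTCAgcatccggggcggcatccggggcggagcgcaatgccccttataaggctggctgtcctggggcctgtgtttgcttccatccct
Ugt2b37: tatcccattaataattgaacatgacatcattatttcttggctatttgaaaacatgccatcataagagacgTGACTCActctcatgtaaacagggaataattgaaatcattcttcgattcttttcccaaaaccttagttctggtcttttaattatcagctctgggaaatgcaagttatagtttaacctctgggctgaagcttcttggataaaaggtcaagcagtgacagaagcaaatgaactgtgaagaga
Ugt2b38: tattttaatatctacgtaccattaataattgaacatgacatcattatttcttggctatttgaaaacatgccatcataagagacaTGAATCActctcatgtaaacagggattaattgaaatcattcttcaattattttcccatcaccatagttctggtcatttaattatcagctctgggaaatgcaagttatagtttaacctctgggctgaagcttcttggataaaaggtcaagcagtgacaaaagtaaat
Ugt2b5: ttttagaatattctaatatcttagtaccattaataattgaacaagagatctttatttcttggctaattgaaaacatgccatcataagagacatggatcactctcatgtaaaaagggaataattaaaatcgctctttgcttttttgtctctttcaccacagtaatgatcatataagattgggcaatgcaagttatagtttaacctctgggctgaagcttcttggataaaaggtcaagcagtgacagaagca
The 250 bases of Gstp1 and Gstp2 were 78.5% identical over their alignment, and a TGAGTCA stands 74 bases before the start of Gstp1 and 89 bases before that of Gstp2. The Ugt2b37 and Ugt2b38 sequences were 85.2% identical, the highest value among the pairs compared, and those of Ugt2b5 and Ugt2b38 were 81.5% identical. Ugt2b37 has TGACTCA 180 bases before its start and Ugt2b38 has TGAATCA 166 bases before its start, while the Ugt2b5 stretch holds no match to TGANTCA.

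The 19 male libraries held 49141951 to 73937726 gene counts each and the 18 female libraries 24388434 to 40864173, with no overlap, so depth and sex cannot be told apart. Levels are given as CPM, counts relative to the library's TMM-scaled total, and a gene is said to pass, rise or fall where edgeR's quasi-likelihood test gave a Benjamini-Hochberg adjusted p under 0.05 over all genes tested. Defining markers of hepatocytes were present in every group, none at 0; of 9 tested, 2 rose and 5 fell in Y665F males and 1 rose and 3 fell in Y665F females (median log2 fold changes of -0.22 and -0.09). Their summed level was nonetheless higher, at 137079 to 155113 CPM in Y665F males against 90707 to 101034 CPM in WT males, and 203686 to 240365 CPM in Y665F females against 118130.0 to 142479 CPM in WT females, and albumin (Alb) alone averaged 110738 CPM in Y665F males against 55557 CPM in WT males. Markers of kidney, an organ that also expresses many of these enzymes, summed to at most 0.113 CPM. Of the other cell types, several marker lists were higher in Y665F males: all 8 macrophage genes (summed level 278 to 667 CPM against 171 to 259.9 CPM in WT males), 7 of 8 T and NK cell genes, 6 of 6 B and plasma cell genes, 6 of 7 neutrophil genes and 7 of 8 stellate cell genes passed the test. Of 8 endothelial genes 1 rose there (median -0.05), and of 2 erythroid genes tested 1 fell, with a summed level over the list of 13.1 to 23.2 CPM against 117 to 134 CPM in WT males. The globin genes Hbb-bs and Hbb-bt were at 0 there, as in WT males. Of 8 proliferation genes 6 rose and 1 fell (summed level 44.5 to 62.0 CPM against 27.1 to 34.0 CPM in WT males). Intestine genes summed to 184 to 308 CPM against 98.1 to 119.9 CPM in WT males, and to 275 to 404 CPM in Y665F females against 131 to 198 CPM in WT females, with Apoa4 alone averaging 211 CPM against 69.0 CPM in males; of 3 tested, 1 rose and 1 fell in Y665F males and 1 rose and 2 fell in Y665F females. Pancreas genes summed to 4.81 to 9.15 CPM in Y665F males against 15.2 to 24.0 CPM in WT males and to 3.89 to 6.68 CPM in Y665F females against 12.3 to 22.4 CPM in WT females, where the 1 gene tested, Cela1, fell in each sex. In Y665F females 8 of 8 T and NK cell genes and 6 of 6 B and plasma cell genes were higher (summed levels 7.63 to 10.4 CPM and 12.5 to 25.1 CPM, against 3.92 to 4.73 CPM and 6.08 to 9.72 CPM in WT females). Acute phase genes were higher in Y665H males (7 of 8) and Y665F males (6 of 8), with summed levels of 5772 to 12757 CPM and 5186 to 15043 CPM against 4612 to 5104 CPM in WT males. Endothelial genes summed to 261 to 342 CPM in Y665H males against 361 to 404 CPM in WT males, without overlap; of the 8, none passed, 5 were lower at an unadjusted p under 0.05, and DESeq2 and limma-voom each called 1 lower. In the same males 2 of 6 B and plasma cell genes (summed level 4.52 to 6.66 CPM against 2.73 to 4.47 CPM in WT males) were higher. Of the macrophage genes (258 to 353 CPM against 171 to 259.9 CPM) 1 of 8 was higher, with 7 higher at an unadjusted p under 0.05 and 4 by DESeq2 and 1 by limma-voom. Of the T and NK cell genes 2 of 8 were lower. In Y665H females 1 of 8 T and NK cell genes was lower. Their summed level was 2.18 to 3.41 CPM against 3.92 to 4.73 CPM in WT females, without overlap. Of 2 erythroid genes tested 1 was higher in Y665H females. Y665F male 2 and Y665H females 2 and 6 stood apart from their groups. Without those 3 libraries the counts of members called were 29, 24, 6 and 14 in the 4 comparisons with WT given next, against 29, 23, 4 and 14 with them. The part of these marker differences in the results that follow was not tested.

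Several members share sequence, which limits how far their reads can be told apart. Of all stretches of 50 bases in their transcripts, 90.5% of those of Gsta1, 49.8% of Gsta2, 54.3% of Gstp2, 33.7% of Gstp1, 28.8% of Gstm3, 41.7% of Ugt2b5, 37.4% of Ugt2b38 and 18.3% of Ugt2b37 also occur in the transcripts of another gene. That share was 18.9% for Gstm1 and ran from 52.1% to 80.2% in the 8 Ugt1a members (79.8% in Ugt1a6b). Of their exon bases, the Ugt1a members share 50.3% to 60.6% with other genes on the same strand, among them each other. A gene on the opposite strand overlaps 41.5% of the exon bases of Ugt1a1. Whether the counting used strand, and how it treated reads that lie in several genes, is not given in the sources used here. Values of these genes are therefore uncertain to that extent.

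Levels of different genes were compared per kilobase of exon sequence not shared on the same strand, within each sex of WT. In WT males the highest means were those of Mgst1 (1126 CPM per kb), Gstp1 (874 CPM per kb), the mu-class Gstm1 (714 CPM per kb) and Ugt2b5 (444 CPM per kb). In WT females they were Mgst1 (774 CPM per kb), Gstm1 (689.8 CPM per kb), the bilirubin-conjugating Ugt1a1 (389 CPM per kb) and Ugt2b5 (259 CPM per kb), and Gstp1 stood lower, at 121 CPM per kb. The Ugt1a1 value divides by 913 of its 2224 exon bases, so its place depends on how shared reads were counted, which is not given. Over the 37 libraries, the lowest were Gsto2 (0.0749 CPM per kb) and Gsta1 (0.364 CPM per kb). Summed over all 40 members, the level was 11017 ± 417 CPM (n = 6, SD) in WT males, 8377 ± 616 CPM (n = 9, SD) in Y665F males and 10831 ± 435 CPM (n = 4, SD) in Y665H males. In females it was 8097 ± 718 CPM (n = 6, SD) in WT, 7235 ± 651 CPM (n = 6, SD) in Y665F and 9961 ± 1273 CPM (n = 6, SD) in Y665H. The Y665F male sums (7082 to 9237 CPM) lay below every WT male sum (10407 to 11697 CPM), whereas in females the WT range (6913 to 8884 CPM) overlapped that of Y665F (6761 to 8295 CPM) and that of Y665H (8622 to 12244 CPM). Such sums weigh abundant genes most. Over the 37 libraries the highest means were those of Mgst1, Gstm1, Gsta3 and Gstp1 (1707, 1128, 1021 and 603 CPM). Of these, Mgst1 and Gstp1 fell in Y665F males, and Gstm1 and Gsta3 did not pass. In bulk liver RNA, fewer cells of a type and less RNA per cell cannot be told apart.

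In WT liver the enzymes were split between the sexes. Of the 40 members, 29 passed the test between WT males and WT females, 17 higher in males and 12 higher in females, where 49.7% of all genes tested passed (23.0% higher and 26.8% lower in males). The ranges of the sexes did not overlap for 22 members, against 29.8% of all genes. Of the alpha class 3 of 4 genes, the pi pair and 7 of 8 Ugt2 genes were higher in males, and all 3 theta genes and 5 of 8 Ugt1a genes were higher in females. Gstp1 read 1138 to 1496 CPM (median 1409) in WT males and 155 to 227 CPM (median 186) in WT females. Every WT male was above every WT female, with a log2 ratio of 2.86 ± 0.16 (SE, adjusted p = 1.2e-16). Ugt2b38 read 5.99 to 12.6 CPM (median 11.0) in WT males and 0.0857 to 0.787 CPM (median 0.409) in WT females, again without overlap, with a log2 ratio of 4.60 ± 0.39 (SE, adjusted p = 9.36e-12). On the female side, Ugt2b37 read 2.49 to 8.96 CPM (median 4.01) in WT females against 0.521 to 1.63 CPM (median 1.34) in WT males, with a male to female log2 ratio of -1.99 ± 0.46 (SE, adjusted p = 0.000487), and Ugt1a10 had a ratio of -1.42 ± 0.20 (SE, adjusted p = 4.17e-07). Markers moved in the same comparison. Lower in WT males were 8 of 8 macrophage, 5 of 8 stellate cell and 4 of 8 T and NK cell genes. Also lower were 3 of 6 B and plasma cell and 4 of 8 acute phase genes. Of 9 hepatocyte genes 4 were lower and 1 was higher, and of 8 endothelial genes 3 were higher. Of the hepatocyte zone genes, 10 of 12 pericentral ones were lower and 6 of 11 periportal ones higher. In the T and NK, pericentral and periportal lists 1 gene each went the other way. Of 2 erythroid genes tested 1 was higher in males. The summed level over the erythroid list was 117 to 134 CPM in WT males against 19.9 to 27.6 CPM in WT females. The globin genes Hbb-bs and Hbb-bt had 0 counts in both groups, and so did Hba-a1 in WT females. The part of these markers was not tested. Ugt1a1, which conjugates bilirubin, was 355 ± 38.0 CPM (n = 6, SD) in WT females and 187 ± 10.1 CPM (n = 6, SD) in WT males.

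The substitutions were compared with WT of the same sex, and as the Y665F and Y665H comparisons of a sex share their WT libraries, their values stand side by side without a test of likeness. In Y665F males 29 members passed, 11 higher and 18 lower, a share of 72.5% against 52.5% of all genes (27.2% higher and 25.3% lower), and the CPM ranges were apart for 23, against 26.4% of all genes. In Y665F females 23 passed, 8 higher and 15 lower, a share of 57.5% against 41.0% of all genes (17.8% higher and 23.3% lower), and the ranges were apart for 18, against 19.9%. In Y665H males 4 passed, all lower, a share of 10% against 8.40% of all genes (5.22% higher and 3.18% lower), and the ranges were apart for 3, against 12.5%. None was higher there; at an unadjusted p under 0.05 the test gave 2 higher and 8 lower, and DESeq2 and limma-voom called 5 and 4 lower and likewise 0 higher. The count was 2 without any single one of WT males 2, 4 and 5 and Y665H males 2 and 3. In Y665H females 14 passed, 12 higher and 2 lower, a share of 35% against 7.50% of all genes (4.40% higher and 3.10% lower), and the ranges were apart for 2, against 1.59%. Split by family, 13 of 22 glutathione transferases (59.1%) and 16 of 18 glucuronosyltransferases (88.9%) passed in Y665F males. In Y665F females 10 of 22 (45.5%) and 13 of 18 (72.2%) passed. The glutathione transferases were nearer the share of all genes in both sexes. In Y665H males 2 of 22 and 2 of 18 passed, and in Y665H females 9 of 22 and 5 of 18. Every effect and its SE from here on is a log2 value. The median log2 fold change of the members was -0.12, -0.12, -0.07 and 0.24 in these 4 comparisons, beside medians of -0.01, -0.02, 0.01 and 0.0047 over all genes.

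**Figure D1:**
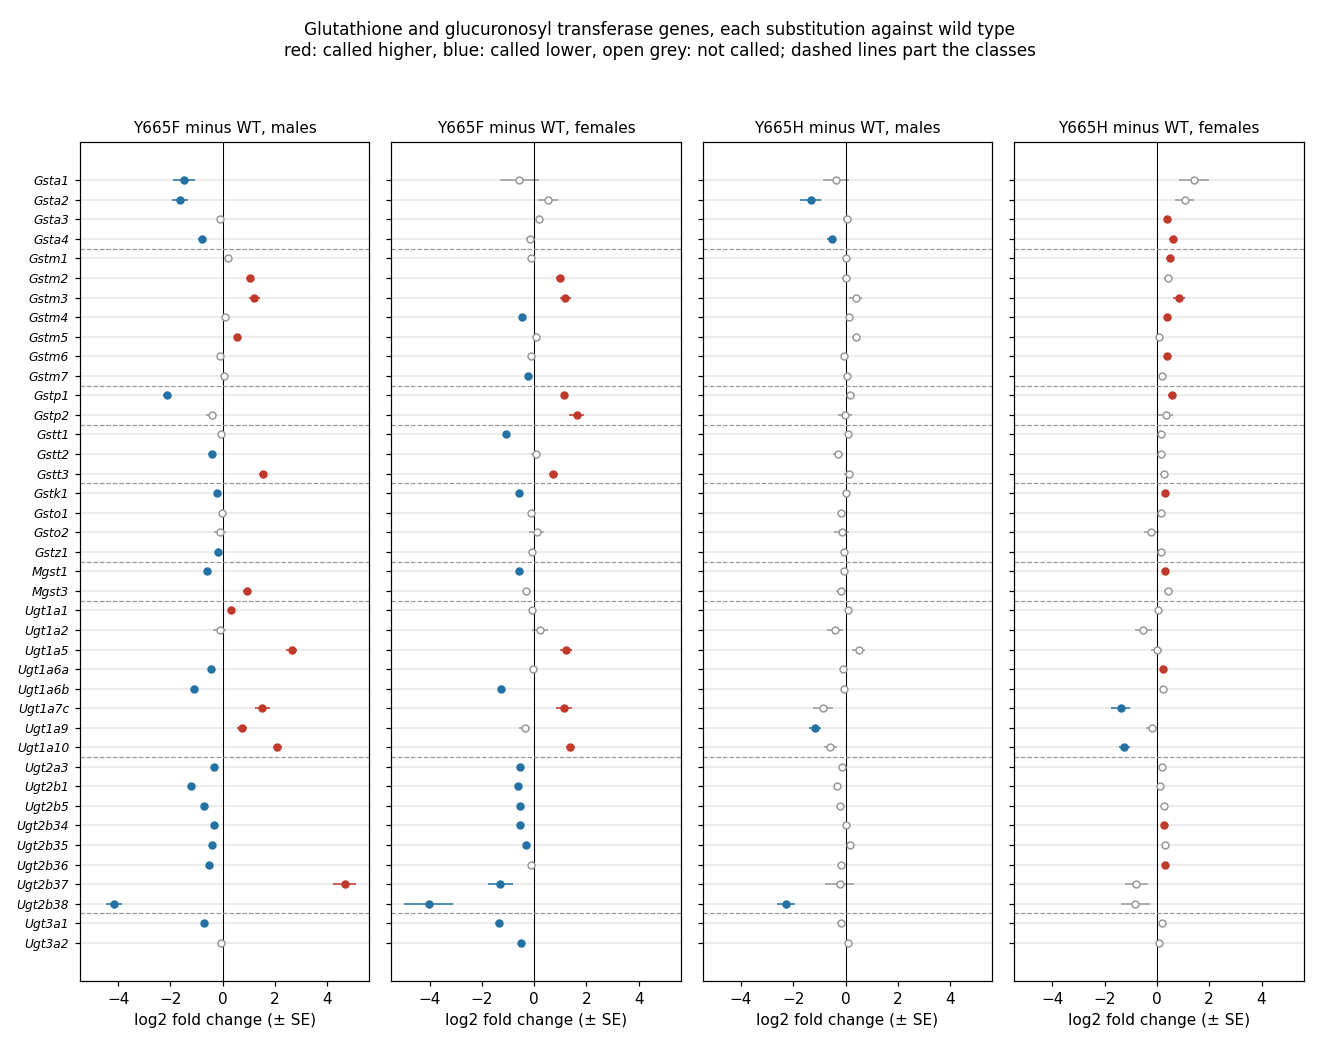
Log2 fold change (± SE) of the 40 members in 4 panels, Y665F and Y665H each against WT in males and in females, on a shared axis; members are ordered by class, red points passed the test as higher, blue points as lower, and open grey points did not pass. Ugt2b37 at 4.66 and Ugt2b38 at -4.16 mark the ends of the Y665F male panel, and in the Y665H male panel 4 points are blue.

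The alpha class, which detoxifies lipid peroxidation products and many carcinogens, was lower in Y665F males for 3 of 4 members. Gsta2 read 19.2 to 35.6 CPM (median 25.1) in WT males, 2.12 to 13.3 CPM (median 8.38) in Y665F males and 10.3, 6.49, 4.54 and 21.6 CPM in the 4 Y665H males. All 9 Y665F males and 3 of 4 Y665H males were below the lowest WT male. The log2 fold changes were -1.65 ± 0.31 (SE, adjusted p = 3.75e-05) for Y665F and -1.33 ± 0.40 (SE, adjusted p = 0.0355) for Y665H; the Y665H call was lost in 6 of 10 fits that left out 1 library, with an adjusted p of up to 0.138 without Y665H male 3. In females Gsta2 had positive values, 0.53 ± 0.37 (SE, adjusted p = 0.259) for Y665F and 1.07 ± 0.37 (SE, adjusted p = 0.0672) for Y665H, neither of which passed. The effect in males minus that in females did pass, at -2.18 ± 0.49 (SE, adjusted p = 0.000968) for Y665F and -2.40 ± 0.55 (SE, adjusted p = 0.00972) for Y665H. Gsta4, which conjugates the lipid peroxidation product hydroxynonenal, was -0.81 ± 0.14 (SE, adjusted p = 5.2e-06) in Y665F males, -0.52 ± 0.17 (SE, adjusted p = 0.0479) in Y665H males, and -0.15 ± 0.15 (SE, adjusted p = 0.439) in Y665F females and 0.60 ± 0.15 (SE, adjusted p = 0.0154) in Y665H females. Its Y665H male call was lost in 7 of 10 fits that left out 1 library, with an adjusted p of up to 0.202 without Y665H male 2. Gsta3, the most abundant alpha-class gene here, was 1011 ± 43.0 CPM (n = 6, SD) in WT males and 948 ± 79.2 CPM (n = 9, SD) in Y665F males, and rose in Y665H females, to 1194 ± 214 CPM (n = 6, SD) from 918 ± 149 CPM (n = 6, SD) in WT females. Gsta1, at under 1 CPM in every group mean, fell by 1.49 ± 0.42 on the log2 scale in Y665F males (adjusted p = 0.00336). None of the 4 passed in Y665F females, where no unadjusted p was under 0.05 and DESeq2 and limma-voom also called 0.

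In the mu class, which acts on many epoxides and other electrophiles, Gstm3 and its neighbour Gstm2 rose in Y665F animals of each sex. Gstm3 read 40.1 to 61.2 CPM (median 45.1) in WT males and 79.8 to 156 CPM (median 106) in Y665F males, without overlap, and 33.0 to 67.4 CPM (median 46.6) in WT females and 65.8 to 174 CPM (median 96.5) in Y665F females, with an overlap of 1 library. The log2 fold changes were 1.20 ± 0.21 (SE, adjusted p = 1.06e-05) in males and 1.20 ± 0.22 (SE, adjusted p = 5.5e-05) in females. Gstm2 gave 1.02 ± 0.13 (SE, adjusted p = 6.96e-08) and 0.99 ± 0.14 (SE, adjusted p = 1.1e-06), and every Y665F library was above every WT library of its sex. Gstm1, the most abundant mu-class gene, did not pass in Y665F, at 0.20 ± 0.12 (SE, adjusted p = 0.181) in males and -0.11 ± 0.13 (SE, adjusted p = 0.525) in females. In Y665H females 4 of the 7 mu genes rose, Gstm1 by 0.49 ± 0.14 (SE, adjusted p = 0.0226), Gstm3 by 0.84 ± 0.22 (SE, adjusted p = 0.0201), Gstm4 by 0.40 ± 0.11 (SE, adjusted p = 0.0223) and Gstm6 by 0.37 ± 0.11 (SE, adjusted p = 0.0332). These 4 calls were lost in 2, 3, 4 and 5 of 12 fits that left out 1 library, and all 4 were lost without Y665H female 2 and without WT female 5. All 6 Y665H females were above all 6 WT females for Gstm1. In Y665F females Gstm4 and Gstm7 fell, by 0.46 ± 0.11 and 0.22 ± 0.076 on the log2 scale (adjusted p = 0.000954 and 0.0177), the latter call lost in 3 of 12 fits that left out 1 library, with an adjusted p of up to 0.0693 without WT female 3. In Y665F males Gstm5 rose, by 0.56 ± 0.12 (SE, adjusted p = 0.000189). No mu gene passed in Y665H males; 1 was higher at an unadjusted p under 0.05 and DESeq2 and limma-voom called 0.

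Of the pi pair, Gstp1 fell in Y665F males and rose in Y665F females. Gstp1, the main pi-class enzyme of mouse liver, read 227 to 415 CPM (median 305) in Y665F males, against the WT male range above, and 339.7 to 481 CPM (median 426) in Y665F females. Each Y665F male was below every WT male and each Y665F female was above every WT female. The mean fell 4.41-fold in males, with a log2 fold change of -2.14 ± 0.13 (SE, adjusted p = 9.73e-16), and rose 2.23-fold in females, with 1.16 ± 0.15 (SE, adjusted p = 7.7e-08). The difference between the effects was -3.30 ± 0.20 (SE, adjusted p = 8.29e-15). The sex difference itself turned: Y665F males averaged 307 ± 51.8 CPM (n = 9, SD) and Y665F females 416 ± 60.4 CPM (n = 6, SD), a male to female log2 ratio of -0.44 ± 0.13 (SE, adjusted p = 0.00636). In Y665H the male values were 1269, 2140.3, 1701 and 1061 CPM in the 4 Y665H males, which overlapped the WT males, and the male to female ratio was 2.48 ± 0.16 (SE, adjusted p = 3.34e-14). Y665H females rose by 0.57 ± 0.15 (SE, adjusted p = 0.0164), a call that was lost without Y665H female 2 (adjusted p = 0.0764).

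Gstp2, the less abundant neighbour, had part of that pattern. It read 0.743 to 1.38 CPM (median 0.991) in WT females and 1.39 to 6.68 CPM (median 2.37) in Y665F females, without overlap, with a log2 fold change of 1.62 ± 0.28 (SE, adjusted p = 1.64e-05). In males it was 2.07 ± 0.464 CPM (n = 6, SD) in WT and 1.53 ± 0.545 CPM (n = 9, SD) in Y665F, a change of -0.43 ± 0.23 (SE, adjusted p = 0.108) that did not pass, with 7 of 9 Y665F males below the lowest WT male. DESeq2 did not call it either, but limma-voom called it lower, as did edgeR's test without Y665F male 1. The difference between the sexes in the Y665F effect was -2.05 ± 0.36 (SE, adjusted p = 4.58e-05).

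**Figure D2:**
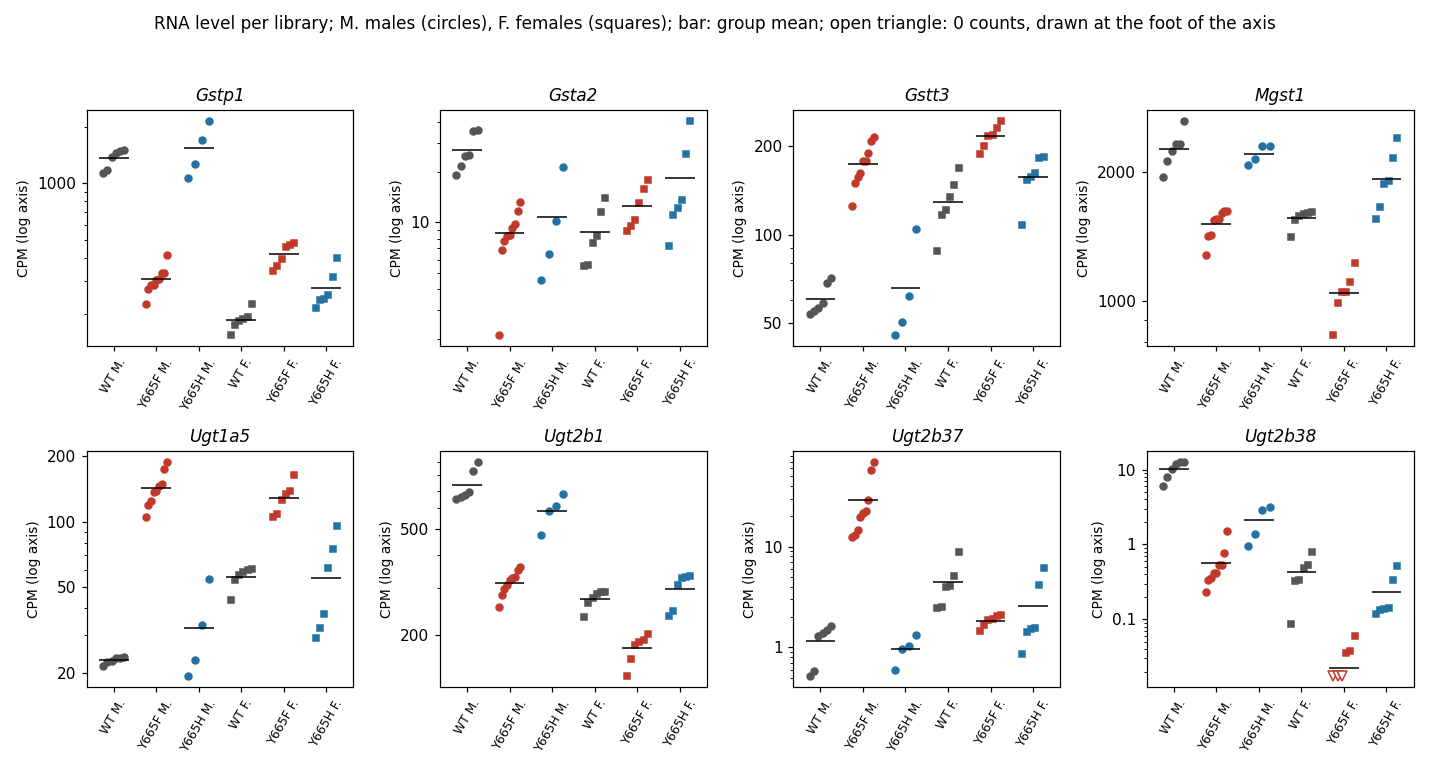
CPM on a log axis in each library of the 6 groups for 8 members, with circles for males, squares for females, a bar at each group mean and an open triangle for a library with 0 counts. Gstp1 in Y665F males (227 to 415 CPM) sits under every WT male, and Ugt2b37 in Y665F males (12.4 to 69.2 CPM) sits over every library of the other groups.

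The theta class, which acts on small halogenated compounds, split within its own gene cluster. Gstt3 read 53.6 to 71.1 CPM (median 57.6) in WT males and 125 to 215 CPM (median 178) in Y665F males, and 87.9 to 169 CPM (median 128) in WT females and 187 to 244 CPM (median 217) in Y665F females. Y665F libraries were above all WT libraries in each sex. It rose by 1.52 ± 0.15 (SE, adjusted p = 1.37e-10) in males and 0.74 ± 0.16 (SE, adjusted p = 0.000249) in females, and the male rise was the larger by 0.78 ± 0.21 (SE, adjusted p = 0.00544). Gstt1 passed in Y665F females and not in Y665F males: 99.4 to 123 CPM (median 108) in Y665F females lay under 198 to 265 CPM (median 233) in WT females, a log2 fold change of -1.09 ± 0.072 (SE, adjusted p = 1.97e-14), against -0.06 ± 0.065 (SE, adjusted p = 0.417) in males, and the difference between the effects was 1.02 ± 0.10 (SE, adjusted p = 6.13e-10). Gstt2 fell in Y665F males, with a log2 fold change of -0.43 ± 0.15 (SE, adjusted p = 0.0129). None of the 3 passed in Y665H animals of either sex; 1 was higher at an unadjusted p under 0.05 in Y665H females, none in Y665H males, and DESeq2 and limma-voom called 0 in each sex.

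Among the membrane-bound enzymes, Mgst1, which protects membranes of the endoplasmic reticulum and mitochondria, read 1949 to 2632 CPM (median 2281) in WT males and 1276 to 1623 CPM (median 1553) in Y665F males, and 1413 to 1614 CPM (median 1588) in WT females and 831 to 1224 CPM (median 1046) in Y665F females. The Y665F libraries of each sex lay below all WT libraries of that sex, and the log2 fold changes were -0.58 ± 0.079 (SE, adjusted p = 1.13e-07) and -0.58 ± 0.087 (SE, adjusted p = 1.57e-06). In Y665H females Mgst1 rose by 0.30 ± 0.087 (SE, adjusted p = 0.0292), a call lost in 3 of 12 fits that left out 1 library, with an adjusted p of up to 0.116 without Y665H female 2. Mgst3, a minor form, rose in Y665F males to 19.3 ± 3.11 CPM (n = 9, SD) from 10.1 ± 1.20 CPM (n = 6, SD), by 0.93 ± 0.16 (SE, adjusted p = 5.31e-06), and did not pass in Y665F females, at -0.30 ± 0.17 (SE, adjusted p = 0.16); the difference was 1.23 ± 0.23 (SE, adjusted p = 0.000124). Of the zeta, kappa and omega genes, Gstz1, which also breaks down tyrosine metabolites, fell by 0.18 ± 0.061 on the log2 scale in Y665F males (adjusted p = 0.0152). Gstk1, found in mitochondria and peroxisomes, fell in Y665F animals of each sex, with -0.23 ± 0.076 (SE, adjusted p = 0.00953) in males and -0.59 ± 0.085 (SE, adjusted p = 7.5e-07) in females, and rose in Y665H females, by 0.30 ± 0.084 (SE, adjusted p = 0.0257). Gsto1 and Gsto2 passed in none of the 4 comparisons with WT, with log2 fold changes from -0.21 to 0.16; 1 unadjusted p lay under 0.05, and DESeq2 and limma-voom called 0.

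The Ugt1a locus held rises and falls side by side. In Y665F males 5 of the 8 members rose and 2 fell, and in Y665F females 3 rose and 1 fell. Ugt1a5 read 21.7 to 23.8 CPM (median 23.1) in WT males and 106 to 188 CPM (median 138) in Y665F males, and 43.5 to 60.5 CPM (median 57.9) in WT females and 105 to 163 CPM (median 129.6) in Y665F females. No Y665F library overlapped the WT range of its sex, and the log2 fold changes were 2.63 ± 0.22 (SE, adjusted p = 1.82e-12) in males and 1.21 ± 0.22 (SE, adjusted p = 2.56e-05) in females, different by 1.42 ± 0.29 (SE, adjusted p = 0.000389). Ugt1a10, known mainly from the gut, was 0.555 ± 0.127 CPM (n = 6, SD) in WT males and 2.38 ± 0.535 CPM (n = 9, SD) in Y665F males, and 1.49 ± 0.368 CPM (n = 6, SD) in WT females and 3.93 ± 1.03 CPM (n = 6, SD) in Y665F females. It rose by 2.09 ± 0.18 (SE, adjusted p = 4.53e-12) and 1.39 ± 0.18 (SE, adjusted p = 1.65e-07). In Y665H females the same gene went the other way, to 0.628 ± 0.146 CPM (n = 6, SD), all 6 below the WT females, with -1.24 ± 0.21 (SE, adjusted p = 0.00108). Ugt1a7c followed at lower levels, with 1.51 ± 0.28 (SE, adjusted p = 3.27e-05) and 1.15 ± 0.31 (SE, adjusted p = 0.0027) in Y665F males and females and -1.39 ± 0.36 (SE, adjusted p = 0.0158) in Y665H females.

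Other Ugt1a genes moved less or the opposite way. Ugt1a6b, a phenol-conjugating form, read 51.1 to 54.0 CPM (median 52.2) in WT males and 21.5 to 27.9 CPM (median 23.2) in Y665F males, and 31.6 to 39.7 CPM (median 35.8) in WT females and 11.9 to 17.6 CPM (median 15.1) in Y665F females. It fell without overlap in each sex, by 1.11 ± 0.08 and 1.25 ± 0.094 on the log2 scale (adjusted p = 7.96e-14 and 3.97e-13). Its near-copy Ugt1a6a fell in males, with -0.46 ± 0.069 (SE, adjusted p = 8.36e-07), and was -0.04 ± 0.078 (SE, adjusted p = 0.713) in females. Ugt1a9 read 18.6 to 27.0 CPM (median 24.4) in WT males, 35.4 to 45.6 CPM (median 38.2) in Y665F males and 15.2, 7.64, 6.46 and 13.0 CPM in the 4 Y665H males. All 9 Y665F males were above and all 4 Y665H males below the WT males, with 0.72 ± 0.19 (SE, adjusted p = 0.0019) and -1.16 ± 0.24 (SE, adjusted p = 0.00275). Ugt1a1 rose in Y665F males by 0.33 ± 0.08 (SE, adjusted p = 0.000734), to 235 ± 25.9 CPM (n = 9, SD), and was -0.10 ± 0.087 (SE, adjusted p = 0.386) in Y665F females. Ugt1a2 passed in none of the 4 comparisons with WT (log2 fold changes -0.52 to 0.24).

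The Ugt2 genes, whose products conjugate steroids and bile acids, mostly fell in Y665F livers, and Ugt2b37 in males was the exception. All 8 members passed in Y665F males, 7 of them lower, and 7 of 8 passed in Y665F females, all lower. Ugt2b1 read 651 to 899 CPM (median 684) in WT males and 255 to 361 CPM (median 323) in Y665F males, and 234 to 291 CPM (median 279) in WT females and 139 to 202 CPM (median 185) in Y665F females. No Y665F library reached the WT range of its sex, and the log2 fold changes were -1.23 ± 0.092 (SE, adjusted p = 1.92e-13) in males and -0.62 ± 0.10 (SE, adjusted p = 8.41e-06) in females, with a difference between the effects of -0.60 ± 0.14 (SE, adjusted p = 0.00123). Ugt2b5, the most abundant Ugt2 gene, was 824 ± 63.8 CPM (n = 6, SD) in WT males and 504 ± 59.0 CPM (n = 9, SD) in Y665F males, and 481 ± 53.6 CPM (n = 6, SD) in WT females and 333 ± 39.8 CPM (n = 6, SD) in Y665F females. It fell by 0.71 ± 0.09 and 0.53 ± 0.10 on the log2 scale (adjusted p = 3.31e-08 and 5.67e-05). For Ugt2a3, Ugt2b34, Ugt2b35 and Ugt2b36 the values in Y665F males ran from -0.51 to -0.32, all passing, and in Y665F females from -0.56 to -0.13, where Ugt2b36 (adjusted p = 0.23) was the one that did not pass. The Ugt2b35 call in females was lost in 4 of 12 fits that left out 1 library, with an adjusted p of up to 0.0832 without WT female 1. In Y665H females Ugt2b34 and Ugt2b36 rose, by 0.29 ± 0.078 (SE, adjusted p = 0.0226) and 0.30 ± 0.087 (SE, adjusted p = 0.0318).

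Ugt2b38, the most male-biased member, was low in every substituted group of males. It read 0.234 to 1.53 CPM (median 0.415) in Y665F males and 1.38, 3.17, 2.88 and 0.944 CPM in the 4 Y665H males, against the WT male range given above. No Y665F or Y665H male reached the lowest WT male, and the log2 fold changes were -4.16 ± 0.29 (SE, adjusted p = 4.26e-14) for Y665F and -2.28 ± 0.36 (SE, adjusted p = 0.000101) for Y665H. The 6 Y665F females held 4 counts in all, against 81 counts in the 6 WT females, and 3 Y665F females had 0 counts. At those depths a count of 0 allows up to 0.0934 to 0.134 CPM (a floor of 3 counts per library, for counting error only). Scaled for library size, the level was 17.9-fold lower, with an exact 95% interval from counting of 6.73 to 67.2. The log2 fold change in Y665F females was -4.03 ± 0.93 (SE, adjusted p = 0.000674), and that in Y665H females was -0.83 ± 0.55 (SE, adjusted p = 0.363).

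Ugt2b37, which lies between Ugt2b5 and Ugt2a3 and is female-biased in WT, rose in Y665F males, where the other Ugt2 members fell. The 9 Y665F males read 14.6, 69.2, 12.4, 58.0, 19.9, 29.2, 13.2, 22.7 and 21.8 CPM in order of replicate number, against 0.521 to 1.63 CPM (median 1.34) in WT males. Every Y665F male exceeded every WT male, and also every library of the 3 female groups, and replicates 2 and 4 were the highest. The mean was 25.1-fold that of WT males, with a log2 fold change of 4.66 ± 0.44 (SE, adjusted p = 5.08e-11). In Y665F females it fell instead, to 1.47 to 2.12 CPM (median 1.88) in Y665F females, with -1.30 ± 0.47 (SE, adjusted p = 0.0269), a call lost in 2 of 12 fits that left out 1 library (adjusted p up to 0.12 without WT female 4). That call was also lost with limma-voom. The difference between the effects was 5.96 ± 0.63 (SE, adjusted p = 5.84e-09), the largest among the members. Y665H males read 1.03, 1.32, 0.961 and 0.594 CPM and did not pass against WT, at -0.22 ± 0.55 (SE, adjusted p = 0.849).

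The Ugt3a enzymes, which use UDP sugars other than UDP-glucuronate, fell in Y665F for 1 of 2 genes in males and 2 of 2 in females. Ugt3a1 read 52.3 to 70.5 CPM (median 65.0) in WT males and 29.2 to 45.2 CPM (median 38.5) in Y665F males, and 36.5 to 57.9 CPM (median 49.6) in WT females and 16.7 to 24.0 CPM (median 17.9) in Y665F females. Ranges did not overlap in either sex, and the log2 fold changes were -0.70 ± 0.12 (SE, adjusted p = 8.83e-06) in males and -1.36 ± 0.14 (SE, adjusted p = 8.87e-10) in females, larger in females by 0.66 ± 0.18 (SE, adjusted p = 0.00735). Ugt3a2, the more abundant form, fell in Y665F females, with -0.50 ± 0.087 (SE, adjusted p = 1.65e-05), and was -0.05 ± 0.079 (SE, adjusted p = 0.601) in Y665F males, with a difference of 0.45 ± 0.12 (SE, adjusted p = 0.0041). Neither passed in Y665H animals, where no unadjusted p was under 0.05 and DESeq2 and limma-voom called 0.

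**Figure D3:**
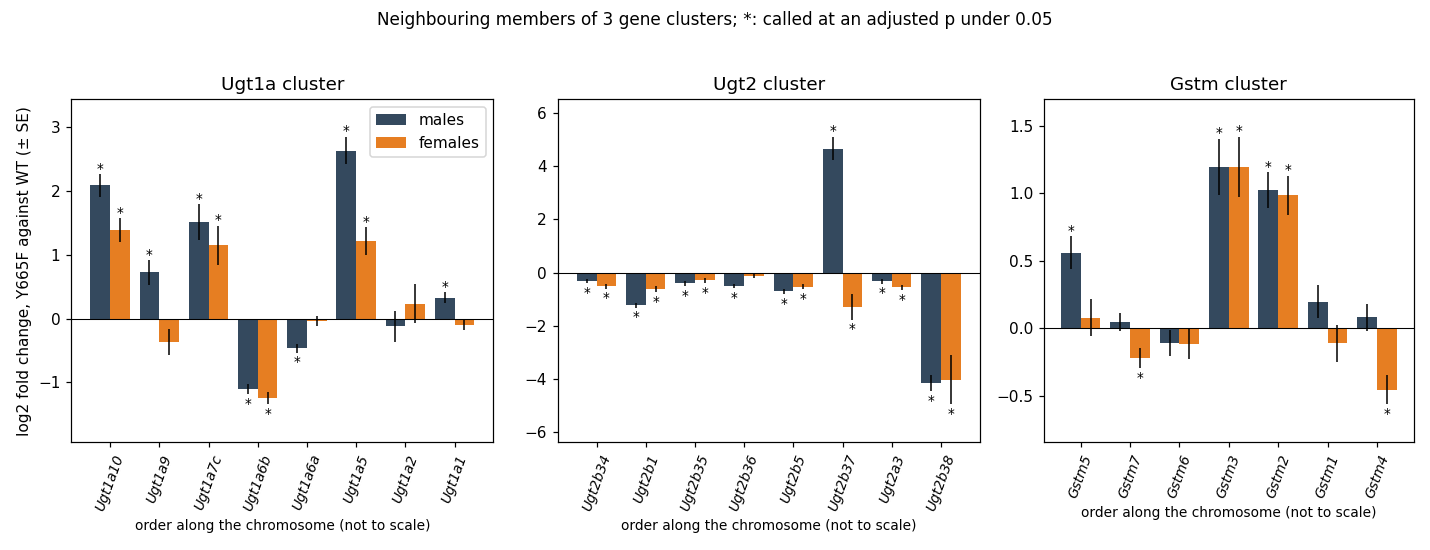
Log2 fold change (bars, ± SE) of Y665F against WT in males and females for the members of the Ugt1a, Ugt2 and Gstm clusters in chromosome order, with an asterisk where the test was passed; the 3 vertical axes differ in scale. Ugt2b37 (4.66 in males) stands beside Ugt2b5 (-0.71) and Ugt2a3 (-0.34), and Gstm3 and Gstm2 (1.20 and 1.02 in males) stand side by side.

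Many members lie beside others of their class in GRCm38 (GENCODE M21). The Ugt1a genes span chr1:88055388-88220002, the Ugt2 genes chr5:86889767-87424203, the mu genes chr3:107895821-108044894, the theta genes chr10:75774115-75837424, the pi pair chr19:4035407-4046023 and the Ugt3a pair chr15:9276888-9370955. Gsta4, Gsta1 and Gsta2 lie together within chr9:78182774-78355788, and Gsto1 and Gsto2 are neighbours within chr19:47854970-47886324. In the Ugt1a cluster the 3 genes with the highest Y665F values in males, Ugt1a10, Ugt1a7c and Ugt1a5, are separated by Ugt1a9, Ugt1a6b and Ugt1a6a. In the mu cluster Gstm3 and Gstm2 are adjacent, and their neighbours Gstm6 and Gstm1 did not pass in Y665F males (-0.11 and 0.20). In the theta cluster Gstt3 rose and the adjacent Gstt1 fell in Y665F females (0.74 and -1.09).

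The question whether the Y665F effect depended on sex was tested directly, as the effect in males minus that in females. It passed for 21 of 40 members, 14 higher in males and 7 lower, where 27.7% of all genes passed (16.1% higher and 11.5% lower). The 7 with a lower value in males were Gstp1, Gsta2, Gstp2, Gsta4, Ugt2b1, Ugt1a6a and Ugt2b36. In the same test 8 of 8 macrophage, 6 of 8 stellate cell and 4 of 8 acute phase genes were higher. Of 8 T and NK cell genes 3 were higher and 1 was lower, and of 9 hepatocyte genes 2 were higher and 1 was lower. The part of these markers was not tested. Within Y665F animals 25 members differed between males and females (18 higher and 7 lower in males, against 43.1% of all genes, 22.8% higher and 20.3% lower), with ranges apart for 13, against 18.0%, and within Y665H animals 21 did (6 higher and 15 lower, against 30.9% of all genes, 14.2% higher and 16.7% lower), with ranges apart for 11, against 13.7%. The Y665H count was 13 when only those 2 groups were fitted and 13 without Y665H male 3. Gstp1 was 2.86, -0.44 and 2.48 in WT, Y665F and Y665H (male to female log2 ratios), and Ugt2b37 was -1.99, 3.97 and -1.43. Ugt2b35 passed in each genotype, at 0.89, 0.79 and 0.76. For Y665H the sex dependence passed for 4 members, Gsta2, Gsta4, Ugt2b5 and Ugt2b36, all lower in males, where 5.24% of all genes passed (2.94% higher and 2.30% lower). None was higher; 1 was higher and 20 lower at an unadjusted p under 0.05, and DESeq2 called 7 and limma-voom 3 lower. That count was 2 without Y665H male 3, 2 without Y665H female 2 and 9 without Y665H female 6.

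**Figure D4:**
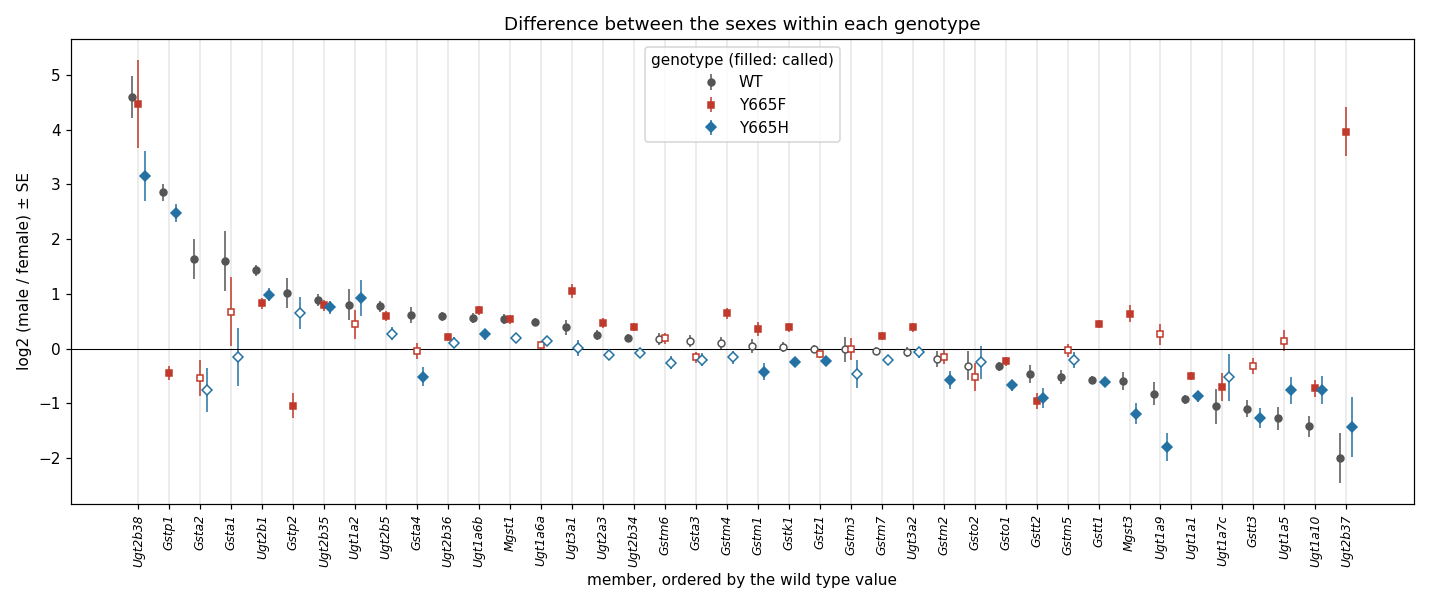
Male to female log2 ratio (± SE) of each member within WT (circles), Y665F (squares) and Y665H (diamonds), ordered by the WT value, with filled symbols where the test was passed. Gstp1 goes from 2.86 in WT to -0.44 in Y665F, and Ugt2b37 from -1.99 to 3.97.

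The 2 substitutions of the same residue were also compared with each other. In males 22 members differed between Y665H and Y665F, 12 higher and 10 lower in Y665H, where 41.7% of all genes passed (20.5% higher and 21.2% lower), and the ranges were apart for 16, against 24.0%. In females 31 differed, 23 higher and 8 lower in Y665H, where 56.5% passed (30.5% higher and 26.0% lower), and the ranges were apart for 22, against 24.3%. Ugt2 genes were higher in Y665H for 6 of 8 members in males and 7 of 8 in females. In males the largest values were Ugt2b37 at -4.88 ± 0.54 (SE, adjusted p = 3.27e-09) and Ugt1a10 at -2.67 ± 0.22 (SE, adjusted p = 4.96e-12) on the lower side, and Gstp1 at 2.33 ± 0.14 (SE, adjusted p = 1.93e-15) and Ugt2b38 at 1.88 ± 0.33 (SE, adjusted p = 1.96e-05) on the higher side. In females Ugt1a10 was -2.63 ± 0.20 (SE, adjusted p = 4.18e-13), Ugt2b38 3.20 ± 1.04 (SE, adjusted p = 0.00897), Gstp1 -0.59 ± 0.15 (SE, adjusted p = 0.000843) and Mgst1 0.89 ± 0.088 (SE, adjusted p = 1.81e-10). None of the 4 alpha-class genes passed between the substitutions in males. There 1 was higher at an unadjusted p under 0.05, and DESeq2 and limma-voom called 0. Gsta2 was 0.32 ± 0.36 (SE, adjusted p = 0.51) and Gsta4 0.29 ± 0.15 (SE, adjusted p = 0.137). Marker sums differed too. T and NK cell genes summed to 2.42 to 5.18 CPM in Y665H males against 6.02 to 13.8 CPM in Y665F males. In females they summed to 2.18 to 3.41 CPM in Y665H against 7.63 to 10.4 CPM in Y665F. B and plasma cell and hepatocyte sums were also lower in Y665H of each sex, and pancreas sums were higher, without overlap. The part of these markers was not tested.

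The rises in Y665H females depended on few libraries and on the fit. Of the 14 members called, Ugt1a10 and Gsta4 were called in all 12 fits that left out 1 library. The calls of Gsta3, Gstk1, Ugt1a6a, Ugt1a7c, Ugt2b34 and Ugt2b36 were lost in 4, 5, 8, 1, 5 and 5 of the 12 fits, and the count over all members ran from 3 without Y665H female 2 to 20 without Y665H female 6. It was 4 without WT female 5, 6 without WT female 2 and 9 without Y665H female 3. The count was 2 when the 2 groups were fitted alone, and 4 with the share of reads in no annotated gene as a covariate. The 12 that rose had log2 values from 0.25 to 0.84. Gstm3 was the highest and Ugt1a6a the lowest of the 12.

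The genes around these enzymes were grouped into lists by function, whose counts stand against the 52.5%, 41.0%, 8.40% and 7.50% of all genes that passed in Y665F males, Y665F females, Y665H males and Y665H females. In Y665F males the glutathione list (12 of 23 genes called), the NRF2 targets (12 of 24) and the receptors (10 of 19) were near that background. Of 23 tested genes of glutathione synthesis and recycling, 4 rose and 8 fell in Y665F males, and 3 rose and 12 fell in Y665F females, while 3 and 6 rose in Y665H males and females. Glo1, the glyoxalase that uses glutathione, had -0.79 ± 0.065 (SE, adjusted p = 2e-12) and -0.66 ± 0.073 (SE, adjusted p = 4.38e-09) in Y665F males and females. Gpx1, the main cytosolic glutathione peroxidase, fell in Y665F females, with -0.97 ± 0.11 (SE, adjusted p = 5.86e-09). Among 24 targets of NRF2, the factor that induces many of these enzymes under oxidative stress, 10 rose and 2 fell in Y665F males, 4 rose and 8 fell in Y665F females, and 3 and 5 rose in Y665H males and females. Nqo1 rose by 1.30 ± 0.15 (SE, adjusted p = 1.04e-08) in Y665F males and Hmox1 by 1.02 ± 0.14 (SE, adjusted p = 1.05e-07).

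Of 13 genes that make UDP-glucuronate or remove glucuronic acid, 5 rose and 4 fell in Y665F males, 1 rose and 8 fell in Y665F females, 3 rose and 1 fell in Y665H males, and 4 rose in Y665H females. Ugdh, which makes UDP-glucuronate, had -0.46 ± 0.12 (SE, adjusted p = 0.00154) and -0.67 ± 0.13 (SE, adjusted p = 0.000137) in Y665F males and females, and Gusb, the beta-glucuronidase, rose by 0.47 ± 0.054 (SE, adjusted p = 4.17e-09) and 0.98 ± 0.06 (SE, adjusted p = 1.99e-15). Of 14 transporters of conjugates and organic anions, 4 rose and 8 fell in Y665F males and 2 rose and 5 fell in Y665F females. In Y665H males 1 rose and 1 fell, and in Y665H females 1 rose. Slco1a1, an uptake transporter, fell, with -4.09 ± 0.36 (SE, adjusted p = 7.97e-12) and -2.48 ± 0.39 (SE, adjusted p = 4.65e-06), and Abcc4, an export pump, rose by 2.26 ± 0.16 (SE, adjusted p = 4.5e-14) and 2.06 ± 0.17 (SE, adjusted p = 7.87e-12). Of 8 genes of bilirubin formation and handling, 2 rose and 4 fell in Y665F males and 1 rose and 5 fell in Y665F females. None passed in Y665H, where 2 were higher at an unadjusted p under 0.05 in each sex, DESeq2 called 0 and limma-voom called 1 in males and 0 in females.

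Of 19 receptors and regulators of these enzymes, 5 rose and 5 fell in Y665F males, 5 rose and 6 fell in Y665F females, 2 rose and 1 fell in Y665H males, and 2 fell in Y665H females. Cux2, a factor of female liver, rose by 7.13 ± 0.42 (SE, adjusted p = 3.31e-16) in Y665F males and 1.71 ± 0.32 (SE, adjusted p = 4.24e-05) in Y665F females, and fell in Y665H females, with -1.30 ± 0.32 (SE, adjusted p = 0.0119). Bcl6, a transcriptional repressor, fell in Y665F males, with -2.20 ± 0.25 (SE, adjusted p = 3.49e-09). Of 11 marker targets of the xenobiotic receptors AHR, CAR and PXR, 3 rose and 5 fell in Y665F males, 1 rose and 4 fell in Y665F females and 2 rose in Y665H females. In Y665H males none passed; 1 was higher and 2 lower at an unadjusted p under 0.05, and DESeq2 and limma-voom called 0. Cyp2b10 (CAR) rose by 1.67 ± 0.27 (SE, adjusted p = 4.12e-06) in Y665F males, and Cyp3a11 (PXR) fell, with -2.21 ± 0.24 (SE, adjusted p = 1.32e-09). Of 12 pericentral genes, 7 rose and 3 fell in Y665F males, 2 rose and 5 fell in Y665F females, 2 rose in Y665H males and 1 in Y665H females. Of 11 periportal genes, 10, 4, 7 and 1 fell in Y665F males, Y665F females, Y665H males and Y665H females. Their part in the members' differences was not tested.

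Short motifs were searched on either strand in the RefSeq windows from 250 bases before to 50 bases after the start, which 36 of the 40 members have. The STAT5 palindrome TTCNNNGAA was present for 4 members (11.1%, against 8.3% of all 32841 windows): Gsta1, Gstm6, Mgst1 and Ugt1a6a. The antioxidant response core TGACNNNGC was present for 4 (11.1% against 12.4%): Gsta3, Gstm5, Gstm7 and Mgst1. TGANTCA, which can overlap that core, was present for 8 (22.2% against 7.81%), among them the pi pair, Ugt2b37 and Ugt2b38 shown above. The HNF1 partial site GTTAAT was present for 7 (19.4% against 7.1%), and the AHR core GCGTG for 7 (19.4% against 32.4%). The 36 members have 45 windows, and a member counts where any of its windows holds a match. These are letter matches and no measure of binding.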

How the data were processed

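Liver RNA in 37 libraries was sequenced as stranded read pairs. The authors deposited 1 table of raw read counts per gene and library; per the submitters' processing notes, FastQC 0.11.9, Trimmomatic 0.36, STAR, SAMtools 1.9, Picard 2.9.2 and HTSeq 0.9.1 were used with genome build mm10. The annotation, strand setting and treatment of shared reads are not given in the sources used here. The 5 summary lines that name no gene (32.4% to 49.9% of a library's total) were left out of library sizes and tests. One edgeR 4.0.16 quasi-likelihood model (R 4.3.3) with 1 mean per group, TMM scaling and filterByExpr (10 counts, 15 in total) was fitted to 15152 genes, and the p-values of each comparison were adjusted by Benjamini-Hochberg. Each SE is the absolute log2 fold change divided by the square root of F. DESeq2 1.42.0, limma-voom (limma 3.58.1), other scalings and filters, thinned counts and fits leaving out 1 library were alternatives. The test was checked on simulated data.

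Members, lists and tests were chosen with earlier results of these data known. The rule for genes described in full took the most abundant member of each class and, among members with a mean of at least 1 CPM in a group compared, the 3 highest and 3 lowest called in each comparison with WT and the 2 highest and 2 lowest in the WT sex difference and in each difference of effects; other named genes were chosen after their values were seen. Exon positions came from GENCODE M21, where all 44 symbols matched 1 gene each, and upstream sequences from RefSeq. No duplicate libraries were found. Same-numbered libraries of different groups were not paired.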

Additional observations from a re-analysis of the deposited data

Results flagged for a closer look

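In 14 of 126 sets of values (21 members in each of the 6 groups), 1 library lay far from the others by Dixon's test, which chance does in about 1 in 20 sets. Gsta3 was highest in WT male 3 (1097 CPM, next 1005 CPM) and Y665H female 2 (1608 CPM, next 1205 CPM). Gstp2 was highest in WT male 3 (2.99 CPM, next 2.07 CPM). Mgst1 was lowest in WT female 5 (1413 CPM, next 1544 CPM). Ugt1a10 was highest in Y665F male 2 (3.61 CPM, next 2.57 CPM) and Y665F female 3 (5.99 CPM, next 3.77 CPM). Ugt1a7c was highest in Y665F male 2 (2.78 CPM, next 1.93 CPM), Y665H male 1 (0.691 CPM, next 0.244 CPM) and Y665F female 3 (5.10 CPM, next 2.96 CPM). Ugt1a9 was highest in WT female 6 (54.0 CPM, next 41.2 CPM). Ugt2b38 was highest in Y665F male 4 (1.53 CPM, next 0.778 CPM). Ugt2b5 was lowest in Y665F male 2 (367 CPM, next 480.2 CPM). Ugt3a1 was highest in Y665F female 1 (24.0 CPM, next 18.5 CPM). Ugt3a2 was highest in Y665F male 2 (425 CPM, next 360.2 CPM). Y665F male 2 appears 4 times in this list, and WT male 3 (Gsta3 and Gstp2) and Y665F female 3 (Ugt1a10 and Ugt1a7c, which share exons) each appear 2 times.

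The effect of a substitution differed between males and females for these members by edgeR's quasi-likelihood test of the difference, given as the log2 effect in males minus that in females. For Y665F it was positive for Gstk1 (0.36), Gstm4 (0.54), Gstm5 (0.48), Gstm7 (0.27), Gstt1 (1.02), Gstt3 (0.78), Mgst3 (1.23), Ugt1a1 (0.43), Ugt1a10 (0.70), Ugt1a5 (1.42), Ugt1a9 (1.09), Ugt2b37 (5.96), Ugt3a1 (0.66) and Ugt3a2 (0.45). It was negative for Gsta2 (-2.18), Gsta4 (-0.66), Gstp1 (-3.30), Gstp2 (-2.05), Ugt1a6a (-0.42), Ugt2b1 (-0.60) and Ugt2b36 (-0.38). For Y665H it was negative for Gsta2 (-2.40), Gsta4 (-1.13), Ugt2b36 (-0.48) and Ugt2b5 (-0.50). With single libraries left out, the Y665F differences of Gstm5 and Gstm7 were each lost in 19 of 27 fits and that of Ugt1a10 in 12 of 27, with adjusted p of up to 0.12 without WT female 3, 0.125 without WT male 5 and 0.102 without WT female 2. The Y665F difference of Gstk1 was lost in 1 of 27 fits, at 0.0633 without WT male 6. The Y665H difference of Ugt2b5 was lost in 12 of 22 fits and that of Ugt2b36 in 2 of 22, with adjusted p of up to 0.118 and 0.0755, each without Y665H male 3.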

How the results depend on the processing

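Counts of members called are given in the order Y665F males, Y665F females, Y665H males and Y665H females against WT, Y665H against Y665F in males and females, the sex difference in WT, Y665F and Y665H, and the sex dependence of the Y665F and the Y665H effect. With 1 library left out they ran from 29 to 30, 22 to 23, 2 to 4, 3 to 20, 20 to 24, 30 to 31, 26 to 30, 23 to 26, 13 to 21, 17 to 21 and 2 to 9. Requiring a log2 fold change of at least 1 as well left 13, 11, 2 (Y665H females), 11, 9, 11, 4, 6, 8 and 2, by construction. Y665H males are not in that list. In them the calls of Ugt2b38, Gsta2 and Ugt1a9 remained. For the sex dependence of the Y665H effect, DESeq2 gave 7. Fitting only the groups compared gave 2 for Y665H females and 13 for the Y665H sex difference. With the share of reads in no gene as a covariate, chosen after seeing the data, Y665H females gave 4 and the Y665H sex dependence 12, and Ugt1a2 in WT turned from a male to female log2 ratio of 0.81 to -0.54 (adjusted p = 0.202); the cause was not tested. The Y665F female call of Ugt2b37 was lost with limma-voom. Other counts stayed within 1.5 times.

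The replicate numbers did not pair the libraries: in 0 of 15 pairs of groups did all same-numbered libraries deviate together (r over 0.1), and 4 of 37 libraries were closest to one of their own number. A fit with the number as a block gave 28, 23, 3, 11, 20, 31, 28, 23, 20, 21 and 2.

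Depth limits members in groups with a mean under 1 CPM: Gsta1 and Gsto2 in every group; Ugt1a10 and Ugt1a7c in WT males and each Y665H group; Ugt2b38 in Y665F males and all females; Ugt1a2 in Y665H females and Ugt2b37 in Y665H males. The Y665H females held 2 to 29 counts of Ugt1a7c each.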
